A study of Rattus norvegicus with 192 samples.

Results

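Penk, Adora2a, Drd1, Drd2, Pde10a, Pde1b, Ppp1r1b and Rgs9 are 8 genes of striatal neurons and of dopamine signalling, and their levels are described here in 2 brain regions of adult female rats, the hippocampus and the prefrontal cortex. All probes that carry these symbols in the platform annotation were taken, which gave 9 of the 22502 probes of the array, 1 per gene except for Ppp1r1b with 2. The probe of Ppp1r1b with the higher mean signal is called its brighter probe and the other its dimmer probe. All 9 probes were detected on at least 5 arrays in each tissue and were tested.

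The rats were Sprague Dawley daughters of dams fed in 3 ways from gestation day 1 to day 21. Control dams ate chow, ethanol dams a liquid diet that took 36% of its calories from ethanol, and pairfed dams the same calories without ethanol in the amounts that ethanol dams ate. The daughters were weaned on day 22 and injected at 50 to 65 days of age with saline or with complete Freund's adjuvant (0.1 ml, 12 mg/ml), a mycobacterial emulsion that causes arthritis, and brains were taken 16 or 39 days later. Diet, injection and day made 12 groups per tissue. A saline group held 5 rats at day 16 and 6 at day 39. An adjuvant group held 9 rats, apart from the hippocampus at day 39 with 8 control and 7 pairfed rats. Arrays of 87 prefrontal cortices and 84 hippocampi, all of the latter from the same rats, entered the comparisons. An array detected 7578 to 10949 probes (median 9868) in the prefrontal cortex and 8140 to 11235 (median 10136) in the hippocampus. Each of the 16 chips carried a single tissue. No source used here gives the litters, and the p-values take each rat as independent. Over 47 to 53 probes whose level follows the rat in both tissues, 82 of 84 rats matched their own hippocampus best, with a median correlation of 0.78. In the prefrontal cortex, the array labelled as replicate 3 of the pairfed saline rats at day 16 had 0.10 with its own hippocampus and 0.62 with that of an ethanol saline rat of day 16, number 5 among the cortices of its group, and it is kept as labelled. That ethanol rat was the remaining exception, with 0.56 for its own hippocampus and 0.57 for the best one. Rats are numbered within a group and a tissue, so the same number may or may not name the same animal in both tissues.

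As background, the medium spiny neurons that make up most of the striatum fall into a class that carries the dopamine receptor of Drd1 and a class that carries the dopamine receptor of Drd2. Drd1 couples to the olfactory-type stimulatory G protein and raises cyclic AMP, and Drd2 couples to inhibitory G proteins and lowers it. Penk, which encodes the precursor of the enkephalin opioid peptides, and Adora2a, an adenosine receptor that raises cyclic AMP, mark the Drd2 class. Pde10a hydrolyses cyclic AMP and cyclic GMP and is strongly enriched in striatal neurons, and Pde1b is a calmodulin-dependent phosphodiesterase. Ppp1r1b encodes a phosphoprotein that inhibits protein phosphatase 1 once protein kinase A has phosphorylated it, and Rgs9 speeds the shut-off of inhibitory G proteins. The striatum lies next to both dissections, below the frontal cortex and in front of and lateral to the hippocampus. Some of these genes are also used by cortical and hippocampal neurons, among them Ppp1r1b in deep cortical layers and Penk in interneurons.

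In GRCr8 coordinates from RefSeq, Penk lies at chr5:21981381-21987074, Adora2a at chr20:13315270-13332802, Drd1 at chr17:10545488-10550029 and Drd2 at chr8:58605403-58669339. Pde10a lies at chr1:54313343-54765668, Pde1b at chr7:136505834-136533034, Ppp1r1b at chr10:83843948-83853063 and Rgs9 at chr10:94696556-94770387. The RefSeq table of upstream sequence held entries for 4 of the 8 genes, and Pde10a, Drd2 and Rgs9 each have an entry that begins at the outer end of the gene. A further entry of Pde10a and that of Drd1 begin inside the gene and are not shown. The 250 bases before these 3 starts are shown because the levels of these genes correlated over all hippocampi, although, as described further on, none of these correlations passed without 2 arrays. They are given on the gene's own strand, for Pde10a chr1:54765669-54765918 (minus strand), for Drd2 chr8:58605153-58605402 (plus strand) and for Rgs9 chr10:94770388-94770637 (minus strand). Capitals mark TGACG, the core of the cyclic AMP response element, and GGGCGG, the GC box, on either strand.
Pde10a: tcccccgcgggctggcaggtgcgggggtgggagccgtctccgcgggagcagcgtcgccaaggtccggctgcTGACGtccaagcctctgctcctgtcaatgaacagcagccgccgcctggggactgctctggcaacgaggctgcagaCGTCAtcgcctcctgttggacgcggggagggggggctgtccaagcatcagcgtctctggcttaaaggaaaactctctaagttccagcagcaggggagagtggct
Drd2: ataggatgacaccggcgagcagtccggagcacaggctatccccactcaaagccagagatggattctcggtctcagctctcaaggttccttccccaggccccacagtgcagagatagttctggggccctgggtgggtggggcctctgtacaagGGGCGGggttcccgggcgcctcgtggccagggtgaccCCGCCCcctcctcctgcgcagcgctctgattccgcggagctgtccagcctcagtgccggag
Rgs9: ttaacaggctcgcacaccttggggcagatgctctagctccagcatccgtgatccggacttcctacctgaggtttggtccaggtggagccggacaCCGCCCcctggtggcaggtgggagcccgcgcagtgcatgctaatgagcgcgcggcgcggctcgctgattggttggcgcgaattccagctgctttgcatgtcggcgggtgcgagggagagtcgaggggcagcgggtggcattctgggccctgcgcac
The Pde10a sequence held 2 matches to TGACG and none to GGGCGG, and the Drd2 sequence held 2 matches to GGGCGG and none to TGACG. The Rgs9 sequence held 1 match to GGGCGG. None of the 3 held TATAAA, and CCAAT was found once, in the opposite strand of the Rgs9 sequence. All 3 were rich in G and C, at 66%, 66% and 65.6%. Of all 33469 regions of 250 bases before a start in the table, 18.2% held TGACG, 30.5% GGGCGG, 12.9% TATAAA and 34% CCAAT, so none of these motifs is rare. The further Pde10a entry, which begins inside the gene, held 1 match to GGGCGG and none to TGACG. A match describes letters and is not a binding site.

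Levels are given as log2 of the normalised signal, and a step of 1 is a 2-fold difference on that scale. Levels of different probes are not set against each other, since probes differ in brightness. Penk ran from 7.12 through a median of 9.38 to 10.91 in the prefrontal cortex and from 7.02 through 8.13 to 12.04 in the hippocampus, and it was detected in every rat of both tissues. Adora2a ran from 5.83 through 7.56 to 9.88 in the prefrontal cortex (detected in 86 of 87 rats) and from 5.23 through 6.99 to 11.19 in the hippocampus (83 of 84). The hippocampal maxima of both genes came from the same animal, which lies far above the other 83.

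Drd1 was the gene detected in the fewest rats. It ran from 4.58 through 6.31 to 7.52 in the prefrontal cortex, where 80 of 87 rats were detected, and from 4.71 through 5.85 to 8.81 in the hippocampus, where 67 of 84 were. Drd2 ran from 4.76 through 7.14 to 8.27 in the prefrontal cortex (83 of 87 detected) and from 4.68 through 7.01 to 8.22 in the hippocampus (82 of 84). The ranges of Drd2 in the tissues nearly coincide.

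Among the enzymes and regulators, Pde10a ran from 7.87 through 9.12 to 10.04 in the prefrontal cortex and from 7.43 through 8.89 to 10.92 in the hippocampus. Pde1b ran from 5.05 through 6.79 to 7.70 (85 of 87 detected) and from 5.13 through 6.74 to 7.84 (79 of 84). Rgs9 ran from 4.79 through 7.02 to 9.35 (85 of 87) and from 5.52 through 6.95 to 10.81 (84 of 84). These 3 genes had similar medians in both tissues.
The brighter probe of Ppp1r1b ran from 10.08 through 10.78 to 12.08 in the prefrontal cortex and from 9.25 through 10.30 to 12.28 in the hippocampus, detected in every rat. Its dimmer probe ran from 4.81 through 6.33 to 7.63 (80 of 87) and from 5.03 through 6.17 to 7.16 (77 of 84).

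**Figure D1:**
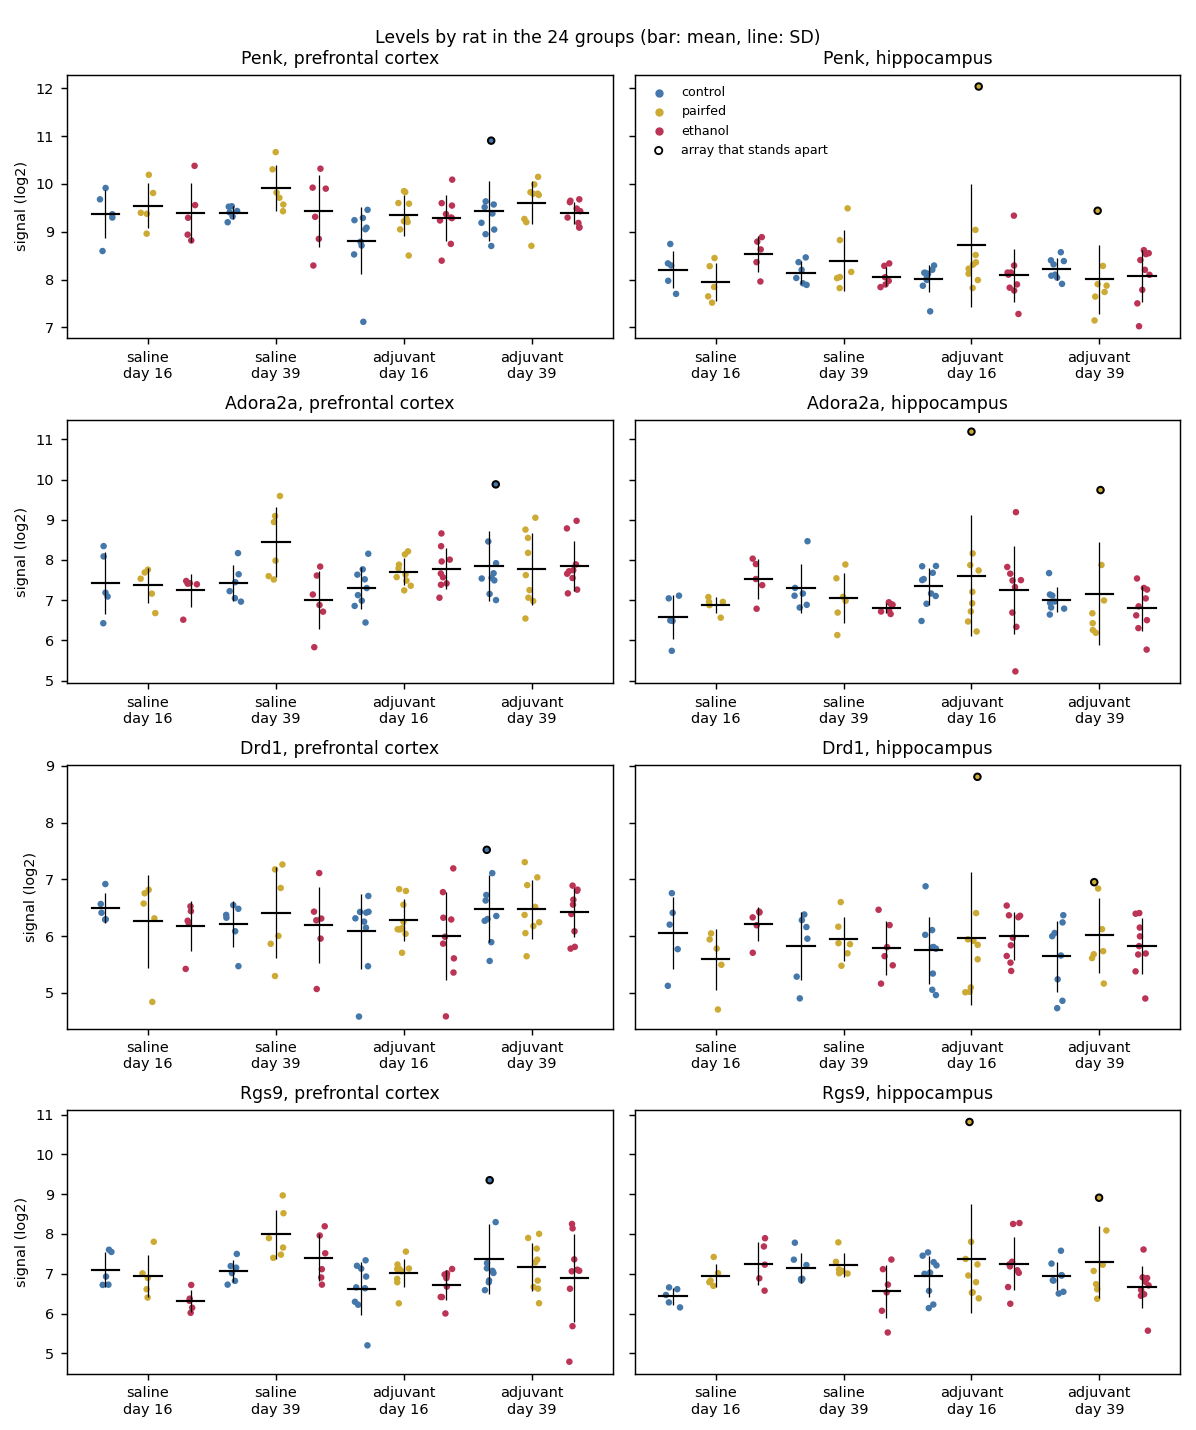
Level of Penk, Adora2a, Drd1 and Rgs9 (rows, log2 signal on the vertical axis) in the 12 groups of the prefrontal cortex (left) and hippocampus (right), with a point per rat coloured by diet, a bar for the group mean and a line for 1 SD either side. The diets overlap in nearly all groups, and the outlined arrays that stand apart lie above their groups, up to 12.04 in hippocampal Penk.

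How much of this spread lies between animals differed by probe. A single prefrontal cortex rat had 9 arrays and 4 hippocampus rats had 16 arrays between them, which gave the SD of repeat arrays of the same animal. For prefrontal cortex this repeat SD was 0.20 for Adora2a against 0.65 between rats, and 0.31 for Rgs9 against 0.64. In the hippocampus it was 0.14 for the brighter Ppp1r1b probe against 0.47 and 0.22 for Penk against 0.61. The SDs between rats include the arrays described further on that stand apart, and were not computed without them. In the hippocampus these reached 12.04 for Penk and 12.28 for the brighter Ppp1r1b probe. For these probes and tissues the SD between rats was 2.06 to 3.44 times the repeat SD. It was lower in the other tissue, at 1.33 times for Penk in the prefrontal cortex (0.39 against 0.52), 0.25 against 0.37 for the brighter Ppp1r1b probe there, and at 1.29 for Rgs9 and 2.02 for Adora2a in the hippocampus. Drd1 and Drd2 were at 1.17 to 1.29 times in both tissues. For the dimmer Ppp1r1b probe in the hippocampus the repeat SD of 0.53 exceeded the 0.39 between rats, and for Pde1b in the prefrontal cortex the values were 0.48 and 0.51, so differences between single rats in these probes are mostly within the error of an array.

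Between the tissues, Penk was the member with the largest difference. The difference of the group means, prefrontal cortex minus hippocampus, was 1.21 ± 0.10 on the log2 scale (SE, 95% confidence interval 1.02 to 1.40), or 2.32-fold, at an adjusted p of 2.99e-24 in limma. Penk was higher in the prefrontal cortex of 78 of 84 rats with both tissues. The means of the 8 prefrontal cortex chips ran from 9.09 to 9.49 and those of the 8 hippocampus chips from 8.05 to 8.38, which do not overlap, and the exact permutation test over chip means gave p = 0.0001554, the smallest it can give. Since no chip carried both tissues, tissue and run of chips cannot be told apart, by limma or by the test over chip means.

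The brighter probe of Ppp1r1b was also higher in the prefrontal cortex, by 0.42 ± 0.07 (1.34-fold, limma adjusted p = 3.18e-07), in 69 of 84 rats. Its dimmer probe differed in the same direction by 0.20 ± 0.08 (adjusted p = 0.0357 in limma), in 53 of 84 rats. Adora2a was higher by 0.49 ± 0.12 (1.41-fold, limma adjusted p = 5.56e-04) in 59 of 84 rats, and Drd1 by 0.41 ± 0.10 (1.32-fold, limma adjusted p = 6.07e-04) in 61 of 84. The cortical and hippocampal ranges of all these probes overlapped. Pde10a differed by 0.17 ± 0.07 and did not pass (limma adjusted p = 0.0524, 51 of 84 rats), while without the 3 arrays described further on that stand apart its difference was 0.20 and passed.

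Drd2, Pde1b and Rgs9 did not pass the test either. The difference was -0.04 ± 0.10 for Drd2 (limma adjusted p = 0.847, higher in the prefrontal cortex of 46 of 84 rats), 0.05 ± 0.09 for Pde1b (0.734, 41 of 84) and 0.05 ± 0.11 for Rgs9 (0.796, 48 of 84). With median scaling in place of quantile normalisation the signs of Pde1b (-0.03) and Rgs9 (-0.02) turned. In all, 5 of 9 probes and 4 of 8 genes were called at an adjusted p below 0.05, all of them higher in the prefrontal cortex. Of the 16129 probes tested, 32.9% were called, so a call by itself is common between these tissues. The median difference of the 8 genes was 0.29 and that of all probes 0.01. In bulk tissue, fewer cells of a type and less RNA per cell cannot be told apart.

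**Figure D2:**
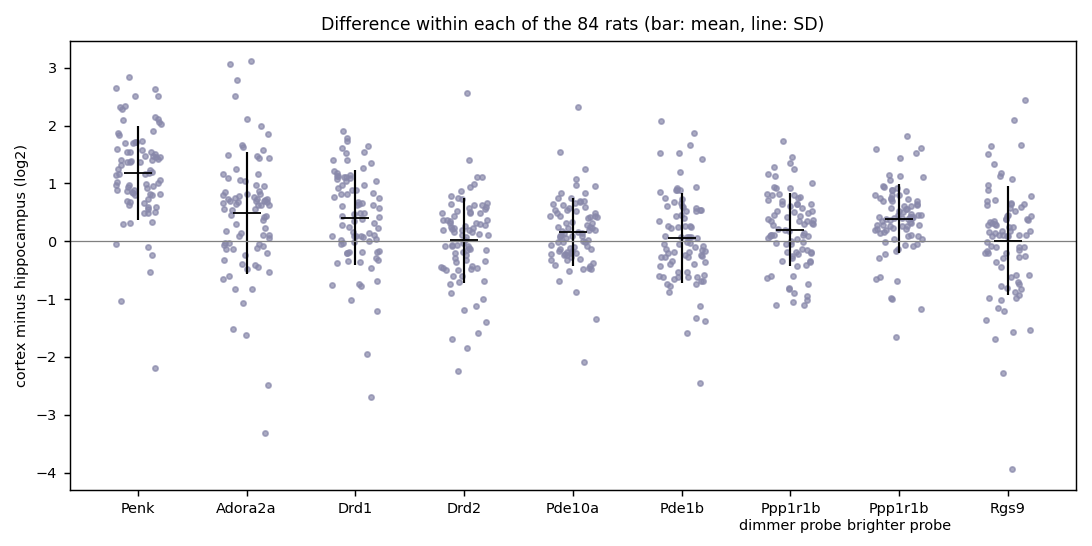
Difference in level, prefrontal cortex minus hippocampus of the same rat (log2, vertical axis), for each of the 9 probes (horizontal axis), with a point for each of 84 rats, a bar for the mean and a line for 1 SD either side. Penk lies above 0 in 78 of 84 rats and Rgs9 in 48, and single rats fall far below 0 in Penk, Adora2a and Rgs9.

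The other genes of the pathway did not share a direction between the tissues. In these lists a gene counted as higher or lower was called, beside 32.9% called among all 16129 probes tested. Among 19 tested striatal neuron markers other than the 8 genes, 6 were higher and 5 lower in the prefrontal cortex, with a median difference of 0.04. Scn4b, a sodium channel subunit, was higher by 1.65, Meis2, a homeobox factor, by 1.34 and Rasd2, a small GTPase of striatum, by 1.29, while Lrrc10b differed by -2.39. Tac1, the substance P precursor of the Drd1 class, was higher by 0.97 and Pdyn, the dynorphin precursor of the same class, differed by -1.09. Tac1 and Pdyn, both of 1 striatal class, thus differed in opposite directions. Which cells gave their signal in these tissues was not tested. Of 7 genes of dopamine synthesis, transport and breakdown, Maoa (0.34) and Th (0.30) were higher and none was lower. Of 11 other dopamine, adenosine and opioid receptors and peptides, none was higher and 3 were lower, Pdyn, Adora1 (-0.27) and Pnoc (-0.15). The shares called in the dopamine synthesis list and in this list were no larger than that of all probes.

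Among 26 G protein, cyclase, kinase and phosphatase partners 8 were higher and 6 lower. Adcy5, the main striatal adenylyl cyclase, was higher by 0.69 and Gng7, the G protein subunit that works with it, differed by -0.89. The smallest p-values of this list were those of Prkar2b and Cdk5r2, both higher by 0.97. Of 16 other phosphodiesterases 4 were higher and 4 lower, with Pde4a at 0.65, Pde4b at 0.42 and Pde7a at -0.43. Of 13 other RGS proteins and Rgs9 partners 6 were higher and 3 lower. Rgs4 led at 1.97, followed by Rgs17 at 0.59, while Rgs10 was at -0.66 and Rgs8 at -0.50. As a check of the dissections, 5 of 8 cortical projection neuron markers were higher (1 lower) and 5 of 9 hippocampal principal neuron markers were lower (0 higher) in the prefrontal cortex. Markers of white matter and of tissue beside the hippocampus moved with the tissue too, with 6 of 7 oligodendrocyte, 8 of 10 choroid plexus and 6 of 9 hypothalamus and septum markers lower in the prefrontal cortex and none of them higher. Of 6 thalamus markers 3 were lower and 1 higher, with the glutamate transporter Slc17a6 at -1.43 and Ramp3 at 1.22. In the olfactory bulb and neuroblast list Cdhr1 was higher by 1.74, and no gene was lower. Th, which is also in the dopamine synthesis list, was higher by 0.30. In the direction of Penk, which interneurons also use, 7 of 10 GABA interneuron markers were higher (1 lower, Gad2 at -0.26), led by Vip (1.38), Cck (1.04), Pvalb (0.85) and Sst (0.83). The endothelium list was also higher in 4 of 5 markers, led by Vwf (0.62), and the blood list in 4 of 6, with none lower in either. The part of these markers in the differences of the 8 genes was not tested.

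Within a tissue, the 12 group means of some genes spread over more than their SDs, and no diet or injection difference built from them was called, as described further on. For Penk in the prefrontal cortex the lowest mean was that of the control adjuvant rats at day 16, 8.81 ± 0.70 (SD, n = 9), followed by the ethanol (9.29 ± 0.49) and pairfed (9.35 ± 0.43) adjuvant rats of that day. The saline groups of day 16 had means of 9.37 ± 0.50 in control, 9.40 ± 0.62 in ethanol and 9.55 ± 0.47 in pairfed rats (n = 5 each). At day 39 the adjuvant means were 9.39 ± 0.23 in ethanol, 9.43 ± 0.63 in control and 9.61 ± 0.46 in pairfed rats, and the saline means 9.40 ± 0.13, 9.43 ± 0.76 and 9.92 ± 0.47 in control, ethanol and pairfed rats. The pairfed rats had the highest mean of the 3 diets at each day and injection. In the hippocampus Penk means ran from 7.95 ± 0.40 (SD, n = 5) in pairfed saline rats at day 16 to 8.71 ± 1.29 (SD, n = 9) in pairfed adjuvant rats at day 16, whose SD is set by 1 animal.

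Adora2a in the prefrontal cortex ran from a mean of 7.0 ± 0.72 (SD, n = 6) in ethanol saline rats at day 39 to 8.45 ± 0.87 (SD, n = 6) in pairfed saline rats at day 39. Rgs9 there ran from 6.31 ± 0.27 (SD, n = 5) in ethanol saline rats at day 16 to 7.99 ± 0.63 (SD, n = 6) in pairfed saline rats at day 39. The same group thus held the highest mean of Penk, Adora2a and Rgs9 in the prefrontal cortex. Pde1b in the hippocampus ran from 6.0 ± 0.51 (SD, n = 9) in control adjuvant rats at day 16 to 7.18 ± 0.32 (SD, n = 7) in pairfed adjuvant rats at day 39. With the 12 means of a tissue placed in order, no step between neighbours was larger than the larger SD of the pair, for any of the 9 probes in either tissue. With 12 ordered means such steps are small by construction, and the lowest and highest groups of Rgs9, Adora2a and Pde1b given above lay farther apart than either SD.

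A few animals stood apart in several of the 8 genes at once, and they were picked after their values had been seen. The hippocampus of pairfed adjuvant rat 2 at day 16 had the highest level of 84 in 8 of the 9 probes. Its Penk level was 12.04 where the others reached 9.49, its Adora2a level 11.19 where they reached 9.74, its Rgs9 level 10.81 where they reached 8.91 and its Drd1 level 8.81 where they reached 6.95. Drd2 was the exception, at the rank of 4 among 84. The gap to the median of the other rats was 3.92 for Penk, 4.21 for Adora2a, 3.86 for Rgs9 and 2.96 for Drd1.

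The same array was the highest of 84 in Tac1 (10.97, median of the others 7.52) and Scn4b (8.79, against 6.77). It was also the highest in Slc6a3, the dopamine transporter (7.81, against 4.90), in Pmch, a hypothalamic peptide precursor (8.90, against 5.09), in Trh, the thyrotropin-releasing hormone precursor (9.41, against 5.83), and in Synpo2, taken as a thalamic marker (8.99, against 5.60). As mean standardised level of a list, it held the rank of 1 among 84 in the other striatal markers (14 of 19 above the median), in the thalamus list (6 of 6), in the hypothalamus and septum list (7 of 9), in the dopamine synthesis list (4 of 7) and in the olfactory bulb and neuroblast list (4 of 5), and the rank of 2 in the endothelium list (5 of 5). For the hypothalamus and septum list its mean was 2.08 and the other hippocampi ran from -0.83 to 1.08. Its rank was 83 of 84 for the markers of hippocampal principal neurons, 1 of 9 above the median. Within the cortex of the same animal Penk had the rank of 13 among 87, Adora2a of 25 and Rgs9 of 54.

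The hippocampus of pairfed adjuvant rat 5 at day 39 was the second array of this kind. It had the next highest levels after the array above in Adora2a (9.74), Drd1 (6.95), Pde10a (9.88), the brighter Ppp1r1b probe (12.05) and Rgs9 (8.91), and the highest in Drd2 (8.22). Among the lists it held the rank of 3 in the other striatal markers (14 of 19 above the median) and of 2 in the oligodendrocyte markers (6 of 7), and it was the highest in Gng7 (10.82), Meis2 (8.54) and the myelin gene Cnp (13.03). Its hypothalamus and septum rank was 31 and its thalamus rank 35, so it resembled the array above in striatal genes and not in these lists. Its prefrontal cortex had ranks of 62 of 87 in Penk, 62 in Adora2a and 69 in Rgs9.

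In the prefrontal cortex, control adjuvant rat 8 at day 39 had the highest level of 87 in Penk (10.91), Adora2a (9.88), Drd1 (7.52), Pde1b (7.70), the brighter Ppp1r1b probe (12.08) and Rgs9 (9.35). It held the rank of 1 in the other striatal markers, with 14 of 18 above the median and a mean of 1.02 where the others ran from -0.67 to 0.67, and the rank of 6 in the oligodendrocyte markers. Gng7 (9.99), Rxrg (9.64), a retinoid receptor, and Gnal (7.99), the olfactory-type stimulatory G protein, were highest on it. The hippocampus of this animal had ranks of 20 of 84 in Penk, 56 in Adora2a and 22 in Rgs9, and its Pde10a level of 7.43 was the lowest of the 84. The remaining ranks of the 3 animals in their other tissue lay between 12 and 69. Values without these arrays are given beside results further on, and the part of neighbouring tissue in them was not tested.

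Across prefrontal cortices, 12 of the 28 pairs of the 8 genes were called as correlated over rats once group and chip means had been taken out, and Adora2a with Rgs9 was the closest pair. The permutations made no allowance for the means taken out, so the p-values of co-variation are somewhat too small. Calls near the threshold, such as Penk with Pde1b (0.25, adjusted permutation p = 0.0398), are therefore uncertain. Adora2a and Rgs9 had a Pearson correlation of 0.62 over 87 rats (Spearman 0.59, permutation p = 1e-05, the smallest that 100000 permutations can give, adjusted p = 8e-05 over 56 pairs in both tissues). It was positive within each of the 8 chips, from 0.30 to 0.86, was 0.54 without the 2 rats farthest from the median of Adora2a and 0.57 without the array that stands apart. Adora2a and Drd1 had a correlation of 0.53 (Spearman 0.49, permutation p = 1e-05, adjusted p = 8e-05), positive in 8 of 8 chips, 0.48 without the 2 farthest rats and 0.50 without the array that stands apart. Adora2a and Drd1 mark different striatal classes and still rose and fell together between animals.

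Penk correlated with Drd1 at 0.41 (Spearman 0.41, adjusted permutation p = 0.00056), with Adora2a at 0.36 (0.33, adjusted p = 0.0024) and with Rgs9 at 0.32 (0.34, adjusted p = 0.00776). Ppp1r1b, by its brighter probe, correlated with Rgs9 at 0.39 (0.33, adjusted permutation p = 0.00107). Without the 2 rats farthest from the median of the first gene named, the values were 0.41 for Penk with Drd1, 0.36 with Adora2a, 0.26 with Rgs9 and 0.31 for Ppp1r1b with Rgs9, and these pairs were positive in 6 or 7 of the 8 chips. Without the array that stands apart Penk with Adora2a was 0.27 (adjusted permutation p = 0.0574) and with Rgs9 0.22 (adjusted permutation p = 0.113), neither of them called, while Penk with Drd1 (0.38) and Ppp1r1b with Rgs9 (0.30) were still called. Penk with Ppp1r1b was at 0.36 (Spearman 0.27, adjusted permutation p = 0.0024), positive in 5 of 8 chips and 0.21 without the 2 farthest rats. Without the array that stands apart this pair was at 0.26 (adjusted permutation p = 0.0697) and not called. Drd2 was the gene least tied to the others, with no called pair in this tissue and -0.03 with Penk (adjusted permutation p = 0.871), its partner in the same striatal class. Of 28 pairs 24 were positive and 12 were called, all of these positive, with a median of 0.17. By Spearman's rho 9 were called, and with median scaling in place of quantile normalisation 25. Without the array that stands apart 5 were called, of which 4 were among the 12. The fifth was a negative one, Pde1b with Rgs9 at -0.32 (adjusted permutation p = 0.0267, -0.21 with all rats).

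In the hippocampus 27 of 28 pairs were positive and 18 were called, with a median of 0.33, but the values rested on the 2 arrays that stand apart. By Spearman's rho over all rats 8 pairs were called, among them Penk with Rgs9 (0.44, adjusted permutation p = 0.00056) and Drd2 with Pde10a (0.36, adjusted permutation p = 0.007). Penk and Adora2a had a correlation of 0.67 over 84 rats (Spearman 0.38, adjusted permutation p = 8e-05), positive in 8 of 8 chips, 0.45 without the 2 rats farthest from the median of Penk and 0.36 without those arrays (adjusted permutation p = 0.0123). Penk and Rgs9 went from 0.66 to 0.26, Adora2a and Rgs9 from 0.60 to 0.23 and Drd1 and Rgs9 from 0.55 to 0.23, each no longer called. For the genes whose upstream sequences are shown, Pde10a and Rgs9 went from 0.50 to 0.15, Drd2 and Pde10a from 0.38 to 0.25 and Drd2 and Rgs9 from 0.33 to 0.12, and none of these pairs stayed past the threshold. Without the 2 arrays the median over 28 pairs was -0.02 and 3 pairs were called. They were Penk with Adora2a and the negative pairs of Ppp1r1b with Drd2 at -0.37 (adjusted permutation p = 0.00504) and with Pde10a at -0.34 (adjusted permutation p = 0.0162).

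**Figure D3:**
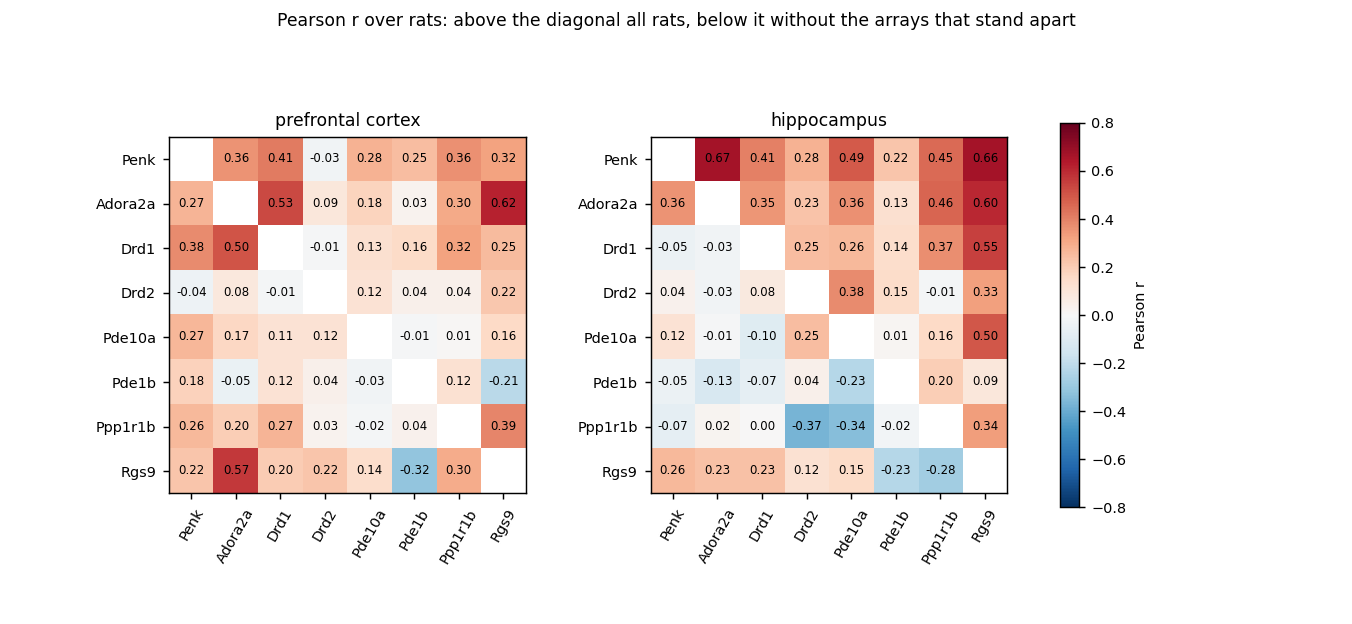
Pearson correlation over rats of each of the 28 gene pairs in each tissue, after group and chip means were taken out, as coloured squares with their value. Above the diagonal are all rats (87 prefrontal cortices, 84 hippocampi) and below it the rats without the arrays that stand apart (86 and 82). The squares of Adora2a with Rgs9 and with Drd1 in the prefrontal cortex differ little across the diagonal, and most hippocampal squares are paler below it.

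**Figure D4:**
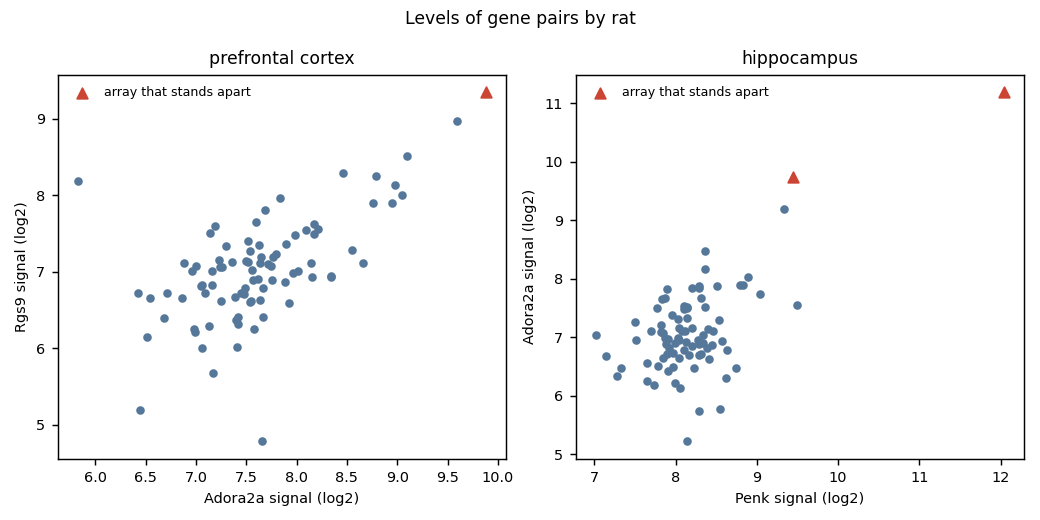
Levels of Adora2a and Rgs9 in the prefrontal cortex (left, 87 rats) and of Penk and Adora2a in the hippocampus (right, 84 rats), as log2 signal on both axes with a point per rat. Triangles mark the arrays that stand apart, which lie at the upper right, in the hippocampus at Penk levels of 12.04 and 9.44.

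The same residuals were set against the mean standardised level of lists of other cell types and neighbouring tissue, 288 relations in all. Among prefrontal cortices the other striatal markers correlated with Adora2a at 0.40, Rgs9 at 0.39, Pde10a at 0.36 and Drd1 at 0.33, each past an adjusted permutation p of 0.05, and with Penk at 0.23, Drd2 at 0.20, Ppp1r1b at 0.14 and Pde1b at -0.00, which did not pass. The oligodendrocyte markers, which lie in white matter, correlated with Adora2a at 0.51, Ppp1r1b at 0.39, Drd1 at 0.37 and Rgs9 at 0.29, again past that threshold. Without the array that stands apart Adora2a and the oligodendrocyte markers remained at 0.48, while Rgs9 and the other striatal markers fell to 0.30 (adjusted permutation p = 0.0704). Pde10a correlated with the endothelium markers at -0.36. Over all rats, those with more Adora2a and Drd1 signal in the prefrontal cortex thus had more signal of other striatal genes and of myelin genes. Of these relations, only that of Adora2a with the oligodendrocyte markers is given without the array that stands apart. The part of neighbouring tissue in this was not tested.

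In the hippocampus the other striatal markers correlated with Penk at 0.59, Adora2a at 0.50, Rgs9 at 0.47 and Pde10a at 0.47, and 7 of 8 genes passed, with Drd1 at 0.26 the exception. The values for Penk and Adora2a no longer passed without the 2 arrays. Ppp1r1b correlated with the thalamus markers at 0.43, the choroid plexus markers at 0.40 and the oligodendrocyte markers at 0.40, and without the 2 arrays the values for choroid plexus and oligodendrocytes were 0.56 and 0.46. The thalamus value without the 2 arrays is not given here. Of these arrays, that of pairfed adjuvant rat 2 at day 16 was the highest of 84 in both the thalamus list and this Ppp1r1b probe. None of the other 7 genes passed for these 3 lists in this tissue, and the difference between genes was not tested.

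By the rule of highest correlation with the mean of the 8 genes over rats, the 10 most similar of 10402 candidate probes in the prefrontal cortex were Bcas1 (0.56), Timm44 (0.52), S100a4 (0.49), Klk6 (0.48), Ugt8, Mix23, Mog, Ppp1r14a, Gpr37 and Pfdn5 (0.44). Bcas1, Klk6, Ugt8, Mog and Gpr37 are known from oligodendrocytes and myelin, and 6 of the 10 stayed among the first 10 without the array that stands apart. In the hippocampus the most similar were Pmch (0.67), Tnni3 (0.62), Slc6a3 (0.60), Tac1 (0.57), Dusp1, Asic4, Pbx3, Trh, Kcnc2 and Ramp1 (0.39), and none of them stayed. Without the 2 arrays Pmch had a correlation of 0.04, Slc6a3 of -0.05 and Tac1 of 0.26.

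Rats that were high in 1 tissue were not clearly high in the other. Over the 84 rats with both tissues the correlation of prefrontal cortex and hippocampus residuals was largest for Drd2, at 0.26 (Spearman 0.33, adjusted permutation p = 0.161), and was 0.00 for Penk. No gene passed by Pearson's r after adjustment over the 8 genes. By Spearman's rho Drd2 passed (adjusted permutation p = 0.0192) and the other 7 did not. Drd2 had a Pearson correlation of 0.30 without the 2 rats farthest from the median and of 0.28 without the rats that stand apart.

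Prenatal diet was compared within each tissue over all rats, within saline rats and within adjuvant rats at day 16. No probe of the 8 genes was called by limma in any of these comparisons, and 0% of the 15250 probes tested in the prefrontal cortex and of the 15320 in the hippocampus were called. At an unadjusted p below 0.05, 574 prefrontal cortex probes (3.76%) differed between ethanol and pairfed rats, so the values below are descriptions of the members that lay farthest from 0.

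Rgs9 in the prefrontal cortex was the member farthest from 0 between ethanol and pairfed rats. Over all injections and days, Rgs9 ran from 4.79 through a median of 6.90 to 8.25 in 29 ethanol rats, from 6.26 through 7.13 to 8.97 in 29 pairfed rats and from 5.20 through 7.02 to 9.35 in 29 control rats. The groups overlapped over most of their range, with the pairfed rats lying higher at the low end. The difference, ethanol minus pairfed, was -0.46 ± 0.16 (SE, 95% confidence interval -0.78 to -0.15, unadjusted p = 0.0046, limma adjusted p = 1.00). Against control rats the ethanol rats differed by -0.24 ± 0.16 and the pairfed rats by 0.22 ± 0.16, so the control rats lay between.

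At day 16 the Rgs9 levels of the 5 ethanol saline rats were 6.32, 6.72, 6.37, 6.14 and 6.02. Those of the 5 pairfed saline rats were 6.61, 6.89, 6.40, 7.80 and 7.01, and those of the 5 control saline rats 6.72, 6.72, 6.93, 7.55 and 7.60. None of the ethanol rats lay above the lowest control rat, with rat 2 level with it to 2 decimals, and 4 of 5 lay below every pairfed rat, with or without the pairfed array whose label is in doubt (6.40). At day 39 the ethanol saline rats lay above the control ones instead, with means of 7.40 ± 0.59 and 7.07 ± 0.28 (SD, n = 6 each) and medians of 7.31 and 7.08, and both lay below the pairfed mean of 7.99 ± 0.63. The ranges of the ethanol (6.73 to 8.19) and control rats (6.73 to 7.50) overlapped. Over both days, the difference between 11 ethanol and 11 pairfed saline rats was -0.59 ± 0.25 (unadjusted p = 0.0227, limma adjusted p = 0.999), and -0.70 ± 0.26 without the array of doubtful label and that of ethanol saline rat 2 at day 39, which detected the fewest probes.

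Adora2a differed in the same direction in those rats and was not called either. In 11 ethanol saline rats it ran from 5.83 through 7.39 to 7.84, in 11 pairfed saline rats from 6.68 through 7.69 to 9.59 and in 11 control saline rats from 6.43 through 7.22 to 8.35. The highest ethanol rat lay below the upper pairfed rats, and the lower parts of the groups overlapped. The difference, ethanol minus pairfed, was -0.72 ± 0.26 (95% confidence interval -1.23 to -0.20, unadjusted p = 0.00722, limma adjusted p = 0.999) in saline rats and -0.34 ± 0.16 (unadjusted p = 0.0391) over all rats. The 5 day 16 levels were 7.42, 7.48, 7.39, 6.51 and 7.41 in ethanol, 7.54, 7.76, 6.68, 7.69 and 7.16 in pairfed and 6.43, 7.09, 8.35, 8.09 and 7.19 in control saline rats, which overlap throughout. The larger part of the saline difference therefore lay at day 39, where the medians were 7.01 in ethanol, 8.46 in pairfed and 7.34 in control rats (6 each).

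The other striatal markers were entered as a covariate, since Adora2a and Rgs9 vary with them. The saline difference of Adora2a was then -0.52 ± 0.25 and that of Rgs9 -0.40 ± 0.24, and over all rats the values were -0.22 ± 0.15 and -0.35 ± 0.15. Each was smaller than without the covariate and had the same sign. The change was not tested, nor was the part of neighbouring tissue in it.

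Penk in the prefrontal cortex was highest in pairfed rats. It ran from 8.50 through 9.60 to 10.67 in pairfed rats, from 7.12 through 9.30 to 10.91 in control rats and from 8.29 through 9.31 to 10.38 in ethanol rats, 29 each. Pairfed minus control was 0.35 ± 0.14 (95% confidence interval 0.07 to 0.62, unadjusted p = 0.0133, limma adjusted p = 0.858), and 0.41 ± 0.13 without the array that stands apart, and ethanol minus pairfed -0.22 ± 0.14. The values of the 5 saline rats at day 16 were 9.92, 9.30, 9.68, 9.37 and 8.60 in control, 9.38, 9.81, 8.96, 10.19 and 9.40 in pairfed and 10.38, 8.82, 9.29, 9.56 and 8.94 in ethanol rats, and they overlapped. In adjuvant rats at day 16 ethanol minus control was 0.50 ± 0.24 for Penk (unadjusted p = 0.0419), where the control group has the lowest mean of the tissue. Both rested in part on control adjuvant rat 8 at 7.12, where the nearest other rat of its group had 8.53. Without this array, left out after its value had been seen, the group mean was 9.02 ± 0.32 (SD, n = 8), the day 16 difference was 0.26 ± 0.23 (unadjusted p = 0.256) and pairfed minus control over all rats was 0.28 ± 0.13.

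No diet difference of the hippocampus over all rats was called, and the one farthest from 0 was that of Rgs9 between pairfed and control rats. It was 0.35 ± 0.19 (unadjusted p = 0.0661, limma adjusted p = 0.997), and 0.15 ± 0.14 without the 2 arrays that stand apart, both of them pairfed. The others of pairfed minus control ran from -0.03 ± 0.11 (the dimmer Ppp1r1b probe) to 0.22 ± 0.12 (Pde10a, 0.12 ± 0.11 without the 2 arrays). The differences ran from -0.28 ± 0.19 (Rgs9) to 0.08 ± 0.17 (Drd1) for ethanol minus pairfed, where Rgs9 was at -0.09 ± 0.14 and Drd1 at 0.21 ± 0.14 without the 2 arrays, and for ethanol minus control from -0.04 ± 0.10 (the dimmer Ppp1r1b probe) to 0.15 ± 0.16 (Drd1). In adjuvant rats at day 16, Pde1b differed by 0.53 ± 0.23 between ethanol and control (unadjusted p = 0.0223) and Penk by -0.63 ± 0.29 between ethanol and pairfed (unadjusted p = 0.0301). The Penk value rested on pairfed rat 2, which stands apart, and was -0.20 ± 0.20 without the 2 such arrays. The 5 saline hippocampi at day 16 had Penk levels of 8.74, 7.70, 7.97, 8.34 and 8.29 in control, 7.52, 8.45, 8.28, 7.85 and 7.65 in pairfed and 8.63, 8.79, 7.96, 8.36 and 8.89 in ethanol rats, with 4 of 5 ethanol rats above the control median and none of the groups apart from the others.

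The genes of the 6 lists around this pathway, other striatal markers, dopamine synthesis, other receptors and peptides, G protein and cyclase partners, phosphodiesterases and RGS proteins, were not called in a diet or injection comparison either. With ethanol against control rats in the prefrontal cortex, 8 of 18 other striatal markers were positive, with a median of -0.01, and the median of all probes was 0.00.

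**Figure D5:**
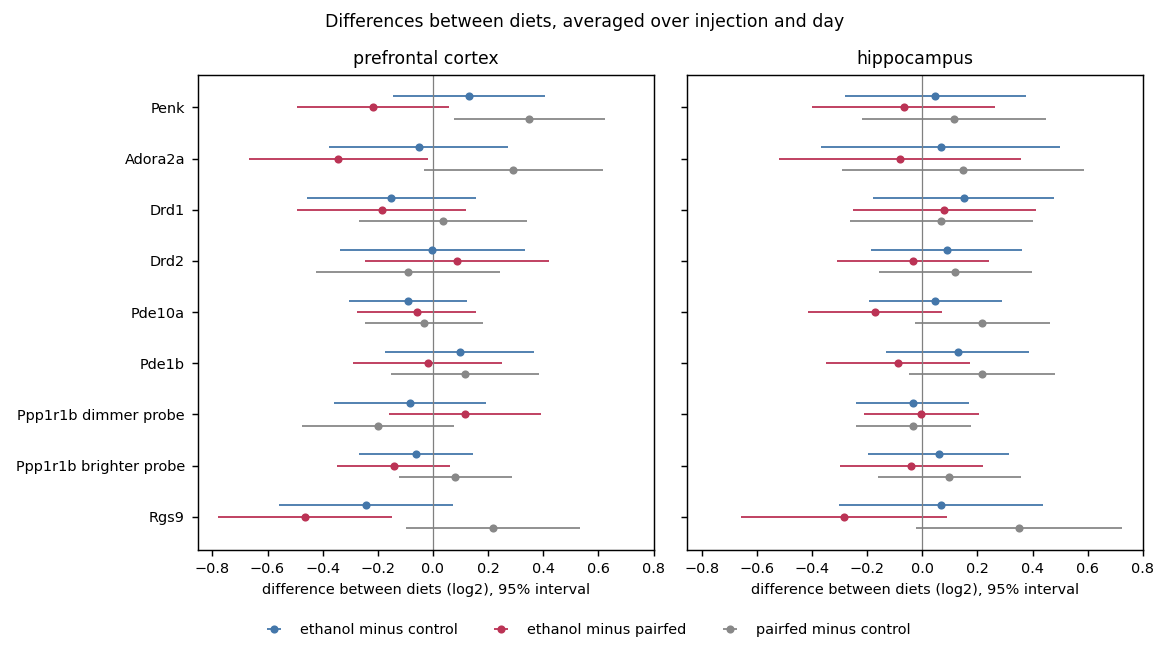
Differences between diets (log2, horizontal axis) of each of the 9 probes (vertical axis) in each tissue, averaged over injection and day, with 95% confidence intervals from limma as lines. In the prefrontal cortex the intervals of Rgs9 and Adora2a for ethanol minus pairfed and of Penk for pairfed minus control lie beside 0, and all intervals of the hippocampus include 0. No value passed after adjustment over all probes.

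Adjuvant was compared with saline at each day with the diets averaged. At day 16, 0.125% of the 15250 probes of the prefrontal cortex (19) and 0.0587% of the 15320 of the hippocampus (9) were called, and none of them was a probe of the 8 genes. At day 39, 0% were called in either tissue. The largest differences in the prefrontal cortex were 0.33 ± 0.20 for Drd2 and 0.28 ± 0.19 for Adora2a at day 16 and -0.34 ± 0.18 for Rgs9 at day 39, the last being -0.40 ± 0.17 without the array that stands apart (unadjusted p = 0.0208, limma adjusted p = 0.879). In the hippocampus they were 0.36 ± 0.26 for Adora2a and 0.29 ± 0.22 for Rgs9 at day 16. Without the 2 arrays that stand apart these were 0.20 ± 0.20 and 0.13 ± 0.16, so a large part of both rested on these arrays.

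Penk, the opioid peptide precursor, was not called at either day. It ran in the prefrontal cortex from 7.12 through 9.24 to 10.09 in 27 adjuvant rats at day 16 and from 8.60 through 9.38 to 10.38 in 15 saline rats, a difference of -0.27 ± 0.16. In the hippocampus the difference at day 16 was 0.06 ± 0.20, and -0.08 ± 0.14 without the 2 arrays that stand apart, with ranges of 7.28 through 8.14 to 12.04 in adjuvant and 7.52 through 8.29 to 8.89 in saline rats.

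Whether the adjuvant response depended on prenatal diet was tested as the difference of the responses at day 16. No probe was called by limma, 0% of those tested in either tissue. For Rgs9 in the prefrontal cortex the response of ethanol rats minus that of control rats was 0.92 ± 0.47 (95% confidence interval -0.02 to 1.85, unadjusted p = 0.0547, limma adjusted p = 0.939). For Penk in the hippocampus the response of ethanol rats minus that of pairfed rats was -1.18 ± 0.48 (95% confidence interval -2.13 to -0.22, unadjusted p = 0.0163, limma adjusted p = 1.00), and -0.82 ± 0.33 without the arrays that stand apart. The errors of these comparisons are about as wide as the tissue difference of Adora2a, so differences of that size were not detectable here.

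Diet differences of the 8 genes were also compared between the tissues. For ethanol minus control, the diet difference in the prefrontal cortex minus that in the hippocampus was -0.31 ± 0.24 for Rgs9 and -0.30 ± 0.23 for Drd1, and for ethanol minus pairfed the values were -0.26 ± 0.27 for Adora2a and -0.18 ± 0.25 for Rgs9. Without the 3 arrays that stand apart the last pair was -0.49 ± 0.23 (unadjusted p = 0.0332, limma adjusted p = 0.999) and -0.38 ± 0.20. None was called by limma, nor was any of the 14441 probes tested (0%). The diet differences described for the prefrontal cortex are therefore not shown to differ from those of the hippocampus.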

How the data were processed

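Rat brain RNA was measured on Illumina BeadChips with 1 array per rat and tissue (171 of 192 arrays). The others repeat a rat. For the repeat SD 20 repeat hybridisations were used, and these and 1 repeat amplification entered an alternative with every array. For 3 of them, of a single hippocampus rat, the labels name different injections, and the title was followed.

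Per the file headers, each array has a column of deposited signal and a column of detection p-values. The range of the deposited signal was taken to mean log2. For scanner software, log transform and background correction the sources used here name nothing. The authors' value table, also deposited as log2, served as an alternative. Of the 22502 probes 13787 have 1 symbol in the platform annotation, and 8715 are unnamed here. The amplification began from 250 ng of total RNA, as the labels state.

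Here the signal was put back on the linear scale, corrected by normexp (offset 16) by means of the detection p-values, quantile-normalised across arrays and taken as log2 (limma 3.58.1, R 4.3.3, statmod 1.5.0). The offset makes folds of dim probes too small. A probe was tested in a tissue if 5 or more arrays had a detection p below 0.05 (15250 cortical and 15320 hippocampal probes). For each tissue limma fitted 12 groups with chip as a fixed block. The tissue difference came from a joint fit of 16129 probes with chip as a random block (correlation 0.0185), and the tissue difference of diet differences from 14441 probes with rat as a random block (0.0327). Benjamini-Hochberg adjustment covered every probe of a comparison, with a threshold of 0.05 for a call. Errors after ± are standard errors for differences and SDs for groups. Co-variation used the brighter probe of Ppp1r1b and 100000 permutations (Python 3.11.15, numpy 2.4.6). Residuals were permuted over all rats of a tissue, without allowance for the group and chip terms taken out, which makes these p-values somewhat too small. The fits were tested on simulated data. These held independent noise and no chip, rat or litter effects, so they do not check how the fits handle such effects. Upstream sequences are RefSeq's, build GRCr8.

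All probes of the 8 genes were named, and the 10 probes most like the 8 genes in each tissue. From each list some genes were named, not always those of smallest p. The members and lists were chosen with earlier results of these data known. The number of arrays limits the precision.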

Additional observations from a re-analysis of the deposited data

Results flagged for a closer look

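In each group of 5 to 9 rats the highest and the lowest rat were checked for a gap to the others that is wide against the range of the group. Of 216 sets of a probe and a group, 24 held such a rat, where chance gives about 1 in 20, and 13 of the 24 were the highest of their group. They fell evenly on the tissues, 12 in each, and 9 of the 24 were on 2 of the 3 arrays that stand apart, 5 and 4 on the arrays named next, with 0 on the hippocampus of pairfed adjuvant rat 5 at day 39. Rats are numbered within a group and a tissue, so the same number may or may not name the same animal in both tissues.

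The hippocampus of pairfed adjuvant rat 2 at day 16 lay above its group in Penk (12.04), Adora2a (11.19), Drd1 (8.81), Pde10a (10.92) and Rgs9 (10.81). The prefrontal cortex of control adjuvant rat 8 at day 39 lay above its group in Penk (10.91), Adora2a (9.88), Pde10a (9.75) and the brighter Ppp1r1b probe (12.08).

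Further high rats in the hippocampus were ethanol adjuvant rat 8 at day 16 in Penk (9.34), control saline rat 4 at day 39 in Adora2a (8.47) and ethanol saline rat 4 at day 16 in the brighter Ppp1r1b probe (10.62). In the prefrontal cortex pairfed saline rat 1 at day 39 was high in Pde1b (7.34).

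Low rats in Penk were control adjuvant rat 1 at day 16 in the hippocampus (7.33, nearest of the others 7.87) and control adjuvant rat 8 at day 16 in the prefrontal cortex (7.12, nearest 8.53). The ethanol saline rat numbered 4 among prefrontal cortices at day 16, another animal than the hippocampus rat 4 above, was low in Adora2a (6.51). In prefrontal cortex Drd1 ethanol saline rat 3 (5.42) and the array labelled pairfed saline replicate 3 (4.84), both of day 16, were low. In Drd2 the low rats were control adjuvant rat 2 at day 39 (4.68) and ethanol adjuvant rat 4 at day 16 (5.64) in the hippocampus, and control adjuvant rat 5 at day 16 (5.28) and ethanol saline rat 6 at day 39 (5.67) in the prefrontal cortex. In Pde1b they were hippocampus ethanol adjuvant rat 2 at day 16 (5.13) and prefrontal cortex control saline rat 4 at day 39 (5.45). No cause was tested for any of these values.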

How the results depend on the processing

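The number of probes of the 8 genes called in 25 comparisons was recomputed under 756 alternative settings and stayed within 1.5 times the reported count in 755. The number of correlated gene pairs, 1 count per tissue, did so in 8 of 11 settings. In the 24 comparisons of diet, adjuvant and their interactions the count was 0 under all 716 settings run, so most of the 756 settings set 0 against 0. Between the tissues the count ran from 4 to 6 with single day 16 saline rats left out. With control saline rats only, 1 probe (Penk) in place of 5 was called between the tissues. Co-variation in the prefrontal cortex gave 25 called pairs with median scaling and 5 without the array that stands apart, in place of 12, and in the hippocampus 3 without the arrays that stand apart, in place of 18. The cause of the median scaling value was not tested. Between the tissues the sign turned for Drd2 (from -0.0555 to 0.00594 with single day 16 saline rats left out, the last without prefrontal cortex pairfed replicate 2), for Pde1b (-0.0253 with median scaling, -0.10 with control saline rats only) and for Rgs9 (-0.0216 with median scaling), none of which passed in any of these settings.

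Rats with the same replicate number in different groups were little more alike than others. Their mean correlations were 0.03 in the prefrontal cortex (lowest -0.16) and 0.06 in the hippocampus (lowest -0.26). For rats with other numbers the means were -0.003 and -0.008. Of the 411 cortical pairs with the same number 163 shared a chip, and of the 397 hippocampal pairs 44 did. With the replicate number as a block no probe of the 8 genes was called between diets, 6 were called between the tissues, and Rgs9 differed by -0.50 ± 0.16 between ethanol and pairfed rats in the prefrontal cortex. The settings without the arrays that stand apart, or without the prefrontal cortex array lowest in Penk, were chosen after seeing the data. The authors' values were not used for the tissue difference, since each tissue appears normalised on its own.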
